A study of Penicillium oxalicum with 6 samples.

Results

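The genes described here serve ribosome biogenesis and tRNA charging in the filamentous fungus Penicillium oxalicum. A gene was a member when its deposited pathway annotation held ribosome biogenesis in eukaryotes or aminoacyl-tRNA biosynthesis, unless its function term was a structural constituent of the ribosome or a methyltransferase activity. The rule gave 146 of 8902 identifiers, of which 92 are ribosome biogenesis members and 54 are tRNA charging members, with 0 in both. No measured value entered the rule. Of the 94 identifiers in the first pathway, 2 were left out for a methyltransferase term, and the structural term removed 0.

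Tags were sequenced from 1 library of each of 3 strains grown in glucose. Dmtr23B lacks mtr23B, which encodes a putative methyltransferase. Rmtr23B is the complemented strain, to which mtr23B was returned. M12, the parent, is a uracil auxotroph with the pyrGQ226* allele, derived from wild-type strain 114-2. All 3 cultures were started from conidia, precultured for 20 h at 30 °C with 2% glucose in medium of the Vogel type, and moved for 24 h to fresh medium of the same kind before total RNA of the mycelium was extracted. The labels used here do not say whether Dmtr23B and Rmtr23B keep the pyrG allele, which promoter drives the returned gene, or how many clones were kept of each. The comparison of Dmtr23B with both strains that carry mtr23B asks which genes differ when it is absent, and that of Rmtr23B with M12 asks how far complementation returns a gene to its parental level.

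Ribosomes of fungi are assembled in the nucleolus, where a long precursor rRNA is modified under the guidance of small nucleolar RNPs, folded within the small subunit processome, trimmed by nucleases and then exported as separate subunits. Aminoacyl-tRNA synthetases join each amino acid to its tRNA, and cells usually hold separate cytoplasmic and mitochondrial forms, either from separate genes or from 1 gene. Both sets of genes are known in yeasts for high expression during growth on a good carbon source.

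In digital gene expression profiling, each mRNA is counted by a 17-bp tag next to a CATG site. The tags assigned to an identifier numbered 2013784 in Dmtr23B (60.09% of its library), 2147854 in Rmtr23B (63.93%) and 2048846 in M12 (60.98%). Values are in TPM, the tags of a gene relative to its library's total and with no division by gene length. Levels are compared between strains, and the order of genes by tags serves to choose which are named. A gene stood apart in a strain when its TPM + 1 was at least 2-fold above or at least 2-fold below that of both other strains and it reached 10 TPM, about 33.5 tags, in any library. With 1 library per strain this rule has no replicate check, and intervals of ratios and shares, by the exact binomial method, cover counting error only. A model test was run with edgeR by taking Rmtr23B and M12 as 2 samples of strains carrying mtr23B, with the lone Dmtr23B library assumed to vary like them. The spread between those 2 strains is not that of repeated cultures. Among the genes not in these pathways, the identifier PDE_09832, annotated to the cell wall and to sporulation, took 0.28% of the tags in Dmtr23B, 16.6% in Rmtr23B and 8.26% in M12, which lowers the TPM of every other gene in the strains where it is high. The cellulose and wheat bran columns of the same table were not used, because over the 146 members the rank correlation of a strain's glucose values with them was -0.03 in Dmtr23B, -0.099 in Rmtr23B and -0.053 in M12, while it lay between 0.901 and 0.949 for pairs of glucose libraries.

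Of the 146 members, 104 reached 10 TPM, and the other 42 stayed below it in all 3 libraries. The members together gave 16458 tags in Dmtr23B, 12280 in Rmtr23B and 12841 in M12. These are 0.491% of the library in Dmtr23B (95% interval 0.484 to 0.499), 0.366% in Rmtr23B (0.359 to 0.372) and 0.382% in M12 (0.376 to 0.389). The summed share was highest in Dmtr23B, and these intervals hold counting error within 1 library per strain, not the spread between cultures. When the tags of PDE_09832 and those with no identifier were left out of the totals, the shares were 0.821% in Dmtr23B, 0.772% in Rmtr23B and 0.725% in M12. The difference between Dmtr23B and Rmtr23B was thus smaller on that base.

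On the scale of library totals most members differed little, and most of these small differences had Dmtr23B highest. Of the 104 that reached 10 TPM, 80 (76.9%) were higher in Dmtr23B than in both other strains by any amount, 13 were lower than both and 11 lay between. Over all 5756 genes that reached 10 TPM the share above both was 58.9%, the share below both 23.6% and the share between 17.5%. Of the 104 members 87, and of the 5756 genes 5226, reached this minimum in Rmtr23B or M12. The rest reached it in Dmtr23B alone and so were above both by construction, here and in each list below. The median log2 difference of Dmtr23B from the mean of the other strains, on log2(TPM + 1), was 0.47 over the 104 members and 0.38 over all genes. Against Rmtr23B alone the members' median was 0.50, and against M12 alone it was 0.45, while Rmtr23B differed from M12 by a median of -0.07. In 70 of the 104 members no pair of strains differed by 2-fold, as against 3173 of the 5756 genes.

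How many members were highest in Dmtr23B depended on the scaling. With the libraries scaled by the median of ratios, 47 of the 104 members were above both other strains, against 40.8% of all genes, and with TMM factors 48 were, against 41.6%. With totals that leave out PDE_09832, 68 were, against 50.1%. Members below both others numbered 24 under the median of ratios, beside 36.5% of all genes, 24 under TMM, beside 36.0%, and 16 without PDE_09832, beside 29.9%. The members' median was 0.13 under the median of ratios, 0.15 under TMM and 0.29 without PDE_09832. The median of all genes shifted with them, to 0.04 under the median of ratios, 0.05 under TMM and 0.20 without PDE_09832. The members' median was 0.09 to 0.10 above that of all genes under each of the 4 scalings. Each scaling multiplies all genes of a library by the same factor, which moves every log2 difference by nearly the same amount. The near-constant gap is thus given by construction and is no separate check of the members' difference from all genes.

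**Figure D1:**
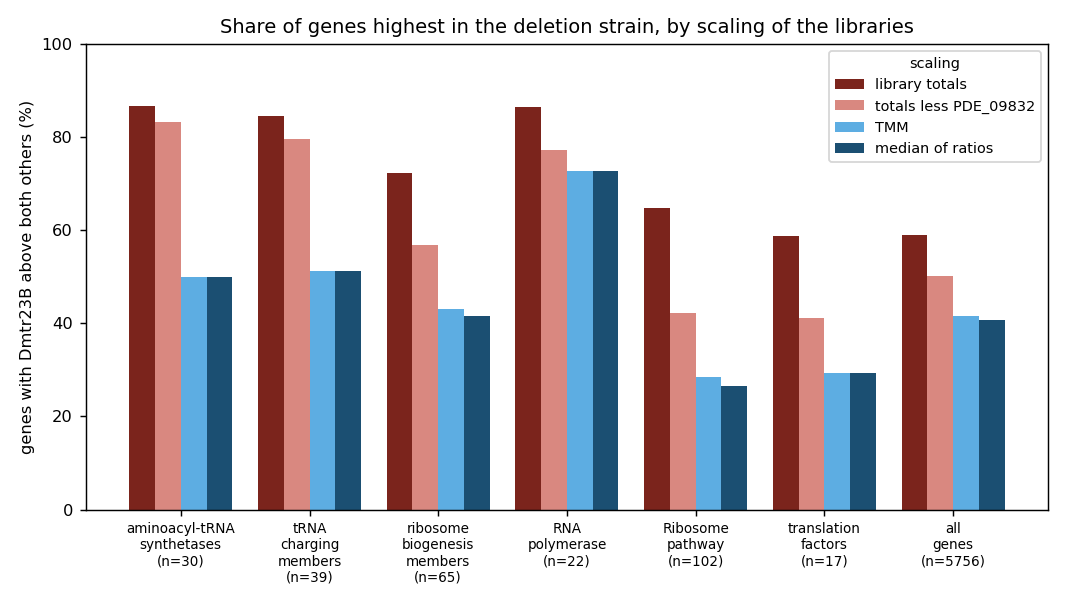
Share of genes that were higher in Dmtr23B than in both Rmtr23B and M12 (vertical axis, percent of the genes reaching 10 TPM) for each list, with 1 bar for each scaling of the libraries. In each list the bar under the median of ratios is shorter than that under library totals, with 20 against 33 of 39 tRNA charging members, 27 against 47 of 65 ribosome biogenesis members, and 40.8% against 58.9% of all genes.

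Large differences were few. By the 2-fold rule 7 of the 104 members stood apart as higher in Dmtr23B, a share of 6.73% beside 10.8% of all genes, and 1 stood apart as lower, beside 7.82% of all genes. Neither share exceeded that of the whole table. Among the 7, PDE_01443, PDE_02922, PDE_05509 and PDE_09406 reached 10 TPM in Dmtr23B alone, so in Dmtr23B they could not have stood apart as lower. With median-of-ratios scaling 2 members were higher, PDE_00658 and PDE_09406, beside 5.76% of all genes, and 2 were lower, PDE_00869 and PDE_08123, beside 10.7%. TMM factors gave the same 4 members, beside 5.81% higher and 10.6% lower. Without PDE_09832 in the totals 5 were higher, beside 7.75%, and 1 lower, beside 9.13%. In edgeR's quasi-likelihood test with Benjamini-Hochberg adjustment over 7351 genes, 129 members were tested, of which 0 rose and 1 fell, beside 1.09% and 2.72% of all genes. At an unadjusted p under 0.05, edgeR had 4 members higher, beside 5.75% of all genes, and 3 lower, beside 10.5%. DESeq2 also gave 0 that rose and 1 that fell, beside 72 and 297 of all genes. Without the filter on low counts edgeR gave 1 that rose, PDE_09406, and 1 that fell, beside 181 and 421 of all genes. The numbers of genes tested by DESeq2 and without the filter are not given here, so these counts cannot be compared as shares. With library totals in place of TMM factors edgeR called 0 genes of the whole table in either direction. At an unadjusted p under 0.05 that fit had 10 of the 129 members, beside 1033 of the 7351 genes.

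**Figure D2:**
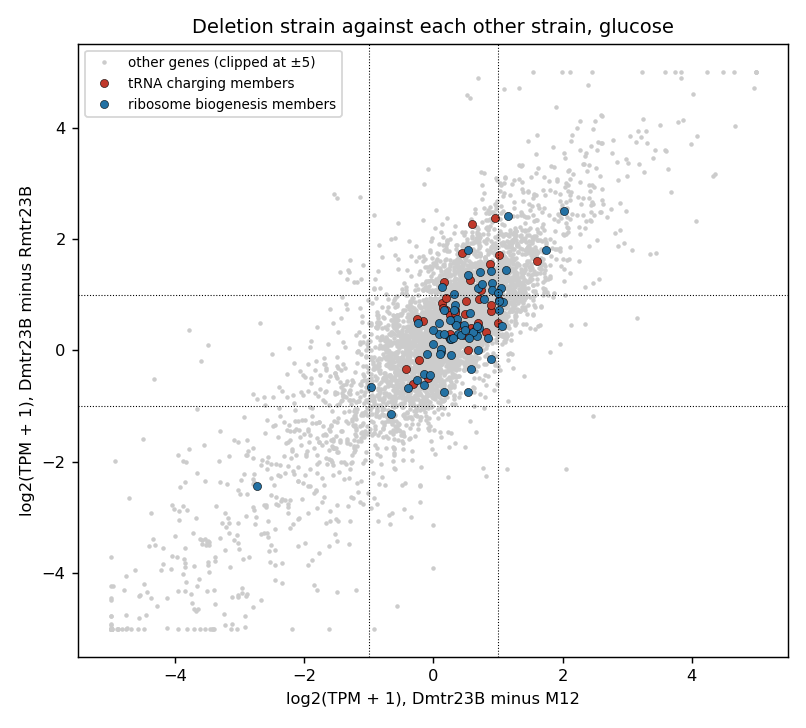
Difference in log2(TPM + 1) of Dmtr23B from M12 (horizontal axis) and from Rmtr23B (vertical axis) for each gene reaching 10 TPM in glucose, with tRNA charging members in red, ribosome biogenesis members in blue and all other genes in grey. Both axes share the Dmtr23B library, dotted lines mark 2-fold, and most members sit near the centre, with PDE_00869 alone at the lower left and 7 members past both upper lines.

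The tRNA charging members held 39 genes that reached 10 TPM. Of these, 33 (84.6%) were higher in Dmtr23B than in both other strains, beside 58.9% of all genes. Their summed share of the library was 0.204% in Dmtr23B, 0.129% in Rmtr23B and 0.154% in M12. Without PDE_09832 and unassigned tags it was still highest in Dmtr23B, at 0.341%, with 0.272% in Rmtr23B and 0.293% in M12. Most of it came from the aminoacyl-tRNA synthetases, of which 38 genes were annotated and 30 reached 10 TPM. In 26 of these 30, Dmtr23B was above both other strains, and in 2 it was below both, beside 58.9% and 23.6% of all genes. Their median log2 difference was 0.57, beside 0.38. With median-of-ratios scaling 15 of the 30 were above both and 4 below both, beside 40.8% and 36.5% of all genes. The median was then 0.22, beside 0.04. In edgeR 0 of the 49 tRNA charging members tested were called, with 1 higher and 0 lower at an unadjusted p under 0.05, and DESeq2 called 0.

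For each of the 20 amino acids, the synthetase gene with most tags was compared across the strains. On library totals Dmtr23B was the highest in 17 of the 20, beside 58.9% of all genes, the lowest in 2, and in 1 it lay between. Under the median of ratios or TMM it was the highest in 10, beside 40.8% or 41.6% of all genes, the lowest in 3 and between in 7, and without PDE_09832 the counts were again 17, 2 and 1. Genes named from here on that are outside the rule given with the processing were added after their values had been seen, to complete a role. The isoleucine enzyme PDE_05988, the synthetase with most tags, had 157 TPM in Dmtr23B, 108 TPM in Rmtr23B and 175 TPM in M12, and was the gene in which Dmtr23B lay between. The glutamine enzyme PDE_02625 had 106 TPM in Dmtr23B, against 80.4 TPM in Rmtr23B and 70.5 TPM in M12. Dmtr23B was the lowest strain for the serine enzyme PDE_02325, with 43.6 TPM in Dmtr23B, 66.4 TPM in Rmtr23B and 54.8 TPM in M12, and for the alanine enzyme PDE_00995, with 45.1 TPM in Dmtr23B, against 64.0 TPM in Rmtr23B and 47.9 TPM in M12. Both enzymes were highest in Rmtr23B. The leading genes for threonine, arginine, leucine, cysteine and glutamic acid were all highest in Dmtr23B. The threonine enzyme PDE_08271 had 121 TPM in Dmtr23B, 49.7 TPM in Rmtr23B and 81.6 TPM in M12. The glutamic acid enzyme PDE_09510 had 50.7 TPM in Dmtr23B, against 16.7 TPM in Rmtr23B and 27.1 TPM in M12, and the cysteine enzyme PDE_09565 had 83.5 TPM in Dmtr23B, 39.0 TPM in Rmtr23B and 50.01 TPM in M12. The remaining leading genes of this set were closer, as in the arginine enzyme PDE_06679, with 99.7 TPM in Dmtr23B, against 63.1 TPM in Rmtr23B and 70.5 TPM in M12, and the leucine enzyme PDE_08219, with 85.0 TPM in Dmtr23B, 64.9 TPM in Rmtr23B and 53.3 TPM in M12.

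A second gene was present for several amino acids, and 13 of the 20 had more than 1. Of the 9 further genes that reached 10 TPM, 8 were highest in Dmtr23B on library totals, beside 58.9% of all genes. Among the 8, PDE_02922 reached 10 TPM in Dmtr23B alone and so was above both others by construction. The 9 were not counted under the other scalings. Cytoplasmic phenylalanine-tRNA synthetase is built of an alpha and a beta chain. The beta chain PDE_02755 had 62.1 TPM in Dmtr23B, 37.5 TPM in Rmtr23B and 33.0 TPM in M12, and the alpha chain PDE_05314 had 17.9 TPM in Dmtr23B, against 12.5 TPM in Rmtr23B and 10.7 TPM in M12. Both were highest in Dmtr23B, whereas the mitochondrial phenylalanine enzyme PDE_08712 was highest in M12, with 40.0 TPM in Dmtr23B, 26.8 TPM in Rmtr23B and 47.6 TPM in M12. The lysine gene PDE_02922 was the synthetase that stood apart as higher in Dmtr23B. It had 34 tags in Dmtr23B, 9 in Rmtr23B and 9 in M12, which are 10.2 TPM in Dmtr23B, against 2.68 TPM in Rmtr23B and 2.68 TPM in M12. The ratio of Dmtr23B to Rmtr23B was 3.79-fold (95% interval 1.78 to 8.98), edgeR's adjusted p was 0.292, and it reached the 10 TPM minimum by less than 1 tag. It did not stand apart under the median of ratios or TMM. The leading lysine gene, PDE_08887, had 47.4 TPM in Dmtr23B, 24.4 TPM in Rmtr23B and 28.6 TPM in M12.

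**Figure D3:**
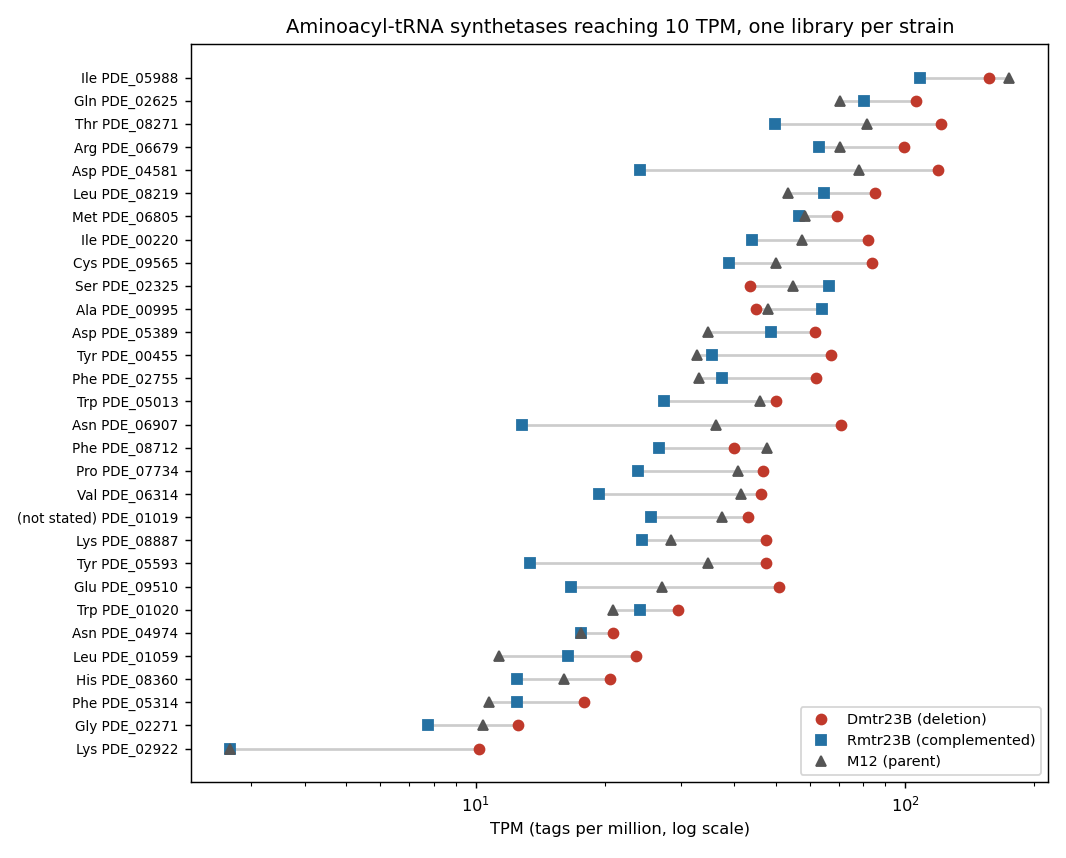
TPM on a log scale (horizontal axis) of the 30 aminoacyl-tRNA synthetase genes that reached 10 TPM, 1 row per gene in order of mean TPM, with a circle for Dmtr23B, a square for Rmtr23B and a triangle for M12. The circle lies to the right of both other marks in 26 rows, and the square lies far to the left in the rows of aspartic acid (24.1 TPM) and asparagine (12.8 TPM).

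Some synthetases set the complemented strain apart. Of the 6 members that were at least 2-fold lower in Rmtr23B than in both other strains, 4 were synthetases, those for aspartic acid, asparagine, tyrosine and valine. In all genes 7.11% stood apart in this way, so 6 of 104 is no larger a share, and 0 members stood apart as higher in Rmtr23B, beside 3.06% of all genes. The aspartic acid enzyme PDE_04581 had 119 TPM in Dmtr23B, 24.1 TPM in Rmtr23B and 78.0 TPM in M12, and Rmtr23B stood at a ratio of 0.309 (95% interval 0.238 to 0.398) to M12. The asparagine enzyme PDE_06907 had 71.0 TPM in Dmtr23B, 12.8 TPM in Rmtr23B and 36.3 TPM in M12, and Rmtr23B stood at a ratio of 0.352 (95% interval 0.243 to 0.503) to M12. These intervals lie below 1, and in both genes M12 was by ratio nearer to Dmtr23B than to Rmtr23B. The tyrosine gene PDE_05593 had 47.4 TPM in Dmtr23B, 13.4 TPM in Rmtr23B and 34.8 TPM in M12, and the valine enzyme PDE_06314 had 46.2 TPM in Dmtr23B, 19.4 TPM in Rmtr23B and 41.4 TPM in M12. The other tyrosine gene, PDE_00455, behaved otherwise, with 67.1 TPM in Dmtr23B, against 35.4 TPM in Rmtr23B and 32.7 TPM in M12, so that Rmtr23B and M12 were close. Asparagine and aspartic acid had further genes too. PDE_04974, for asparagine, had 20.9 TPM in Dmtr23B, 17.6 TPM in Rmtr23B and 17.6 TPM in M12, and PDE_05389, for aspartic acid, had 61.8 TPM in Dmtr23B, 48.8 TPM in Rmtr23B and 34.8 TPM in M12.

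Of the tRNA charging members that are not synthetases, 2 were annotated to glutamyl-tRNA amidotransferase, an enzyme that in organelles makes glutaminyl-tRNA from misacylated glutamyl-tRNA. The A subunit PDE_01443 stood apart, with 14.9 TPM in Dmtr23B, against 3.87 TPM in Rmtr23B and 6.85 TPM in M12. Its ratio to M12 was 2.18-fold (95% interval 1.30 to 3.74), and edgeR's adjusted p was 0.373. The gene stood apart on library totals and under none of the other 3 scalings. The other gene, PDE_04773, stayed under 10 TPM and lay the other way, with 5.37 TPM in Dmtr23B, 7.44 TPM in Rmtr23B and 5.95 TPM in M12. The remaining 14 rows carried no synthetase annotation. Of the 8 that reached 10 TPM, 6 were higher in Dmtr23B than in both others, beside 58.9% of all genes. The rows with most tags were PDE_02571, with 65.3 TPM in Dmtr23B, 64.9 TPM in Rmtr23B and 45.0 TPM in M12, and PDE_00540, with 37.9 TPM in Dmtr23B, against 43.2 TPM in Rmtr23B and 44.6 TPM in M12. The values of PDE_02571 in Dmtr23B and Rmtr23B were nearly equal, and PDE_00540 was lowest in Dmtr23B.

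**Figure D4:**
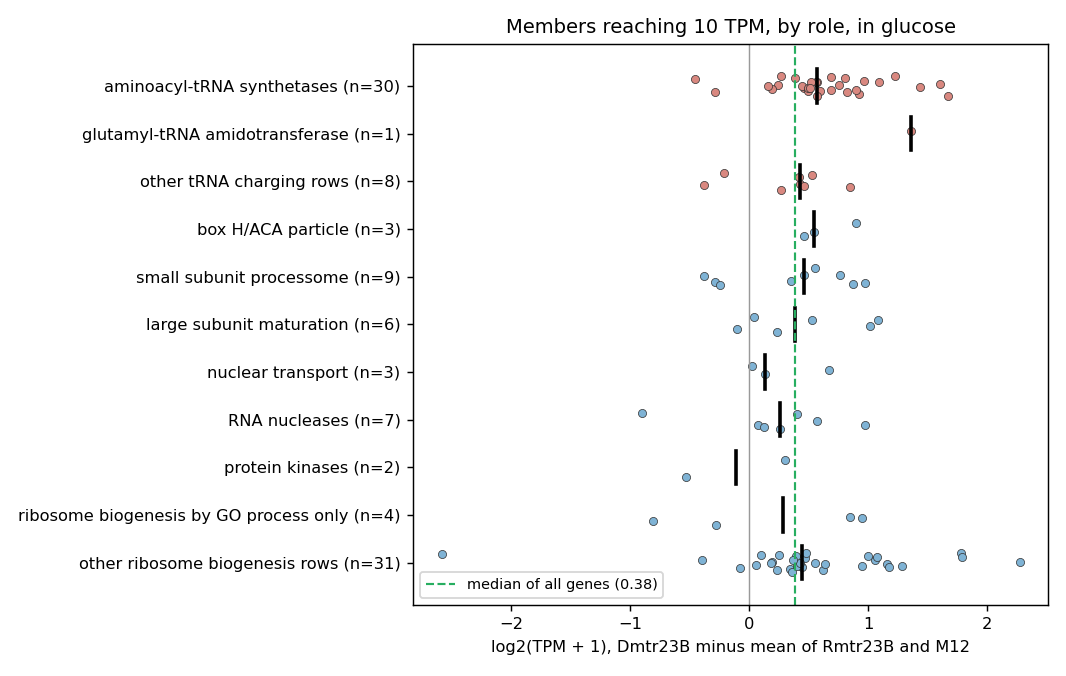
Difference in log2(TPM + 1) of Dmtr23B from the mean of Rmtr23B and M12 (horizontal axis) for each member reaching 10 TPM, 1 row per role, with tRNA charging members in red, ribosome biogenesis members in blue, a black bar at the median of each role and a dashed line at the median of all genes, 0.38. The medians run between -0.12 for 2 protein kinases and 0.57 for the 30 synthetases, apart from the single amidotransferase gene at 1.36.

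The ribosome biogenesis members held 65 genes that reached 10 TPM. In 47 of them (72.3%) Dmtr23B was above both other strains, and in 9 it was below both, beside 58.9% and 23.6% of all genes. The median log2 difference was 0.43. With median-of-ratios scaling 27 were above both and 18 below both, beside 40.8% and 36.5% of all genes, with a median of 0.08. Their summed share of the library was 0.287% in Dmtr23B, 0.237% in Rmtr23B and 0.228% in M12. Without PDE_09832 and unassigned tags the order changed, to 0.4799% in Dmtr23B, 0.5002% in Rmtr23B and 0.4322% in M12. For the sum of these genes, therefore, the place of Dmtr23B above Rmtr23B held on library totals and not on the second base. A large part of the sum is 1 gene, PDE_08134, with 2044 tags in Dmtr23B, 2142 in Rmtr23B and 1913 in M12. All these genes together had 9620, 7953 and 7657 tags in the same order. By gene, with totals that leave out PDE_09832, 37 of the 65 were above both other strains and 12 below both. The shares of all genes were 50.1% and 29.9%.

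All 3 genes annotated to the box H/ACA particle, which makes pseudouridine in rRNA, were highest in Dmtr23B, beside 58.9% of all genes. Under the median of ratios, under TMM or without PDE_09832, 2 of the 3 were. The shares of all genes were then 40.8%, 41.6% and 50.1%. Cbf5, PDE_02298, the pseudouridine synthase itself, had 59.98 TPM in Dmtr23B, against 27.1 TPM in Rmtr23B and 36.9 TPM in M12. Nop10, PDE_09553, a small core protein of the particle, had 68.0 TPM in Dmtr23B, 58.3 TPM in Rmtr23B and 37.2 TPM in M12. Gar1, PDE_08272, had 30.4 TPM in Dmtr23B, against 22.03 TPM in Rmtr23B and 21.7 TPM in M12. In Nop10 the complemented strain was nearer to Dmtr23B than to M12, and in Cbf5 it was nearer to M12. Of these 3 genes 0 differed 2-fold from both other strains, and the edgeR adjusted p-values were 0.591 for Cbf5, 0.932 for Nop10 and 0.935 for Gar1.

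The small subunit processome folds the precursor of the small subunit rRNA and holds it for cleavage. Of its 13 annotated members 9 reached 10 TPM. In 6 of these Dmtr23B was above both others and in 3 below both, beside 58.9% and 23.6% of all genes. The median log2 difference was 0.46. With median-of-ratios scaling 3 were higher and 3 lower, beside 40.8% and 36.5% of all genes, with a median of 0.13. The GTP-binding protein PDE_04970 had 71.6 TPM in Dmtr23B, 54.2 TPM in Rmtr23B and 43.8 TPM in M12. The processome components Utp6, PDE_04997, with 35.8 TPM in Dmtr23B, against 21.1 TPM in Rmtr23B and 17.3 TPM in M12, and Utp15, PDE_02008, with 36.4 TPM in Dmtr23B, against 19.6 TPM in Rmtr23B and 16.7 TPM in M12, showed the wider gaps. The regulatory subunit of casein kinase 2, PDE_07102, which in yeast is part of this particle, ran the other way, with 31.0 TPM in Dmtr23B, 48.2 TPM in Rmtr23B and 34.2 TPM in M12. Imp3, PDE_04146, was also lowest in Dmtr23B, with 11.3 TPM in Dmtr23B, 15.8 TPM in Rmtr23B and 11.9 TPM in M12. Its partner Imp4, PDE_00138, stayed under 10 TPM, with 6.86 TPM in Dmtr23B, against 8.04 TPM in Rmtr23B and 6.25 TPM in M12. The third gene below both was PDE_02992, with 14.6 TPM in Dmtr23B, 19.9 TPM in Rmtr23B and 16.4 TPM in M12.

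Factors of large subunit maturation held 6 of 9 genes that reached 10 TPM. On library totals 4 of the 6 were highest in Dmtr23B and 0 lowest, beside 58.9% and 23.6% of all genes. Under the median of ratios 3 were highest and 2 lowest, beside 40.8% and 36.5%. Nmd3, PDE_07806, the export adaptor of the large subunit, had 122 TPM in Dmtr23B, against 72.9 TPM in Rmtr23B and 97.3 TPM in M12. The eIF-6 gene PDE_02254, whose product keeps the large subunit from joining the small one too early, had 117 TPM in Dmtr23B, 118 TPM in Rmtr23B and 108 TPM in M12, a nearly level pattern. The nucleolar GTPase gene PDE_05509 stood apart, with 20.0 TPM in Dmtr23B, against 8.63 TPM in Rmtr23B and 9.23 TPM in M12. The ratio to M12 was 2.17-fold (95% interval 1.40 to 3.43), edgeR's adjusted p was 0.464, and the gene no longer stood apart under the median of ratios, under TMM or without PDE_09832. Nop4, PDE_09042, an RNA-binding protein of early large subunit particles, had 24.8 TPM in Dmtr23B, 11.6 TPM in Rmtr23B and 11.9 TPM in M12, close to 2-fold over each other strain. Midasin, PDE_03211, the large ATPase that removes assembly factors, was highest in the complemented strain, with 9.55 TPM in Dmtr23B, 16.7 TPM in Rmtr23B and 6.25 TPM in M12. Its ratio of Rmtr23B to M12 was 2.67-fold (95% interval 1.59 to 4.64).

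Nuclear transport carries the finished subunits out of the nucleus. The Ran GTPase gene PDE_08134, which gives transport its direction, had 609.9 TPM in Dmtr23B, 638 TPM in Rmtr23B and 569 TPM in M12, a spread well under 2-fold. The exportin-type gene PDE_06840 was highest in the complemented strain, with 90.7 TPM in Dmtr23B, 115 TPM in Rmtr23B and 60.1 TPM in M12. The mRNA export factor Mex67, PDE_02968, had 35.2 TPM in Dmtr23B, 17.0 TPM in Rmtr23B and 28.0 TPM in M12. Of the 3 transport genes at or above 10 TPM, therefore, 1 was highest in Dmtr23B, beside 58.9% of all genes. The median log2 difference of the 3 was 0.13. It became -0.23 under the median of ratios, -0.21 under TMM and -0.06 without PDE_09832.

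All 7 genes of RNA nucleases reached 10 TPM, and 5 were highest in Dmtr23B, beside 58.9% of all genes. Under the median of ratios 2 were, beside 40.8%, and the median of the 7 went from 0.26 to -0.06. The exception at the low end was Dhp1, PDE_00222, the fungal counterpart of the nuclear 5′ to 3′ exonuclease that trims rRNA ends. It had 139 tags in Dmtr23B, 312 in Rmtr23B and 221 in M12, which are 41.5 TPM in Dmtr23B, against 92.9 TPM in Rmtr23B and 65.8 TPM in M12. Dmtr23B was lowest, at a ratio of 0.447 (95% interval 0.363 to 0.547) to Rmtr23B and a ratio of 0.630 (95% interval 0.506 to 0.783) to M12. The log2 difference was -0.90, and the gene did not pass edgeR's test, with an unadjusted p of 0.0371 and an adjusted p of 0.266. The exonuclease gene PDE_09459 lay between, with 16.7 TPM in Dmtr23B, 11.6 TPM in Rmtr23B and 19.9 TPM in M12. RNA exonuclease 3, PDE_04826, and nucleolar RNase III, PDE_09106, were higher in Dmtr23B, RNA exonuclease 3 with 20.3 TPM in Dmtr23B, against 8.33 TPM in Rmtr23B and 11.6 TPM in M12, and RNase III with 14.0 TPM in Dmtr23B, against 9.23 TPM in Rmtr23B and 11.6 TPM in M12.

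Of the 3 protein kinases of the pathway 2 reached 10 TPM. Casein kinase I, PDE_05395, had 23.6 TPM in Dmtr23B, 16.4 TPM in Rmtr23B and 22.03 TPM in M12, and the kinase PDE_06313 had 6.56 TPM in Dmtr23B, against 11.0 TPM in Rmtr23B and 8.93 TPM in M12. RIO2, PDE_07520, a kinase of late small subunit maturation, had 3 tags in Dmtr23B, 2 in Rmtr23B and 10 in M12, too few to order the first pair. Among the genes placed in ribosome biogenesis by process term alone, PDE_08102 had 10.2 TPM in Dmtr23B, 17.6 TPM in Rmtr23B and 8.93 TPM in M12, and PDE_08123 had 7.16 TPM in Dmtr23B, against 11.9 TPM in Rmtr23B and 14.9 TPM in M12. The ratio of Dmtr23B to M12 in PDE_08123 was 0.481 (95% interval 0.283 to 0.798), while its interval to Rmtr23B, 0.347 to 1.02, included 1.

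Of the 47 ribosome biogenesis rows that carry no assembly role beyond the pathway term, 31 reached 10 TPM. In Dmtr23B 4 of these 31 (12.9%) stood apart as higher and 1 as lower, near or below the 10.8% and 7.82% of all genes. Of the 129 members tested, PDE_00869 alone passed edgeR's test. PDE_00869 fell in Dmtr23B, with 46 tags in Dmtr23B, 264 in Rmtr23B and 325 in M12, or 13.7 TPM in Dmtr23B, against 78.6 TPM in Rmtr23B and 96.7 TPM in M12. Rmtr23B and M12 were close to each other and far above Dmtr23B, with a ratio of Dmtr23B to Rmtr23B of 0.175 (95% interval 0.125 to 0.240). The log2 difference was -2.58, with an edgeR adjusted p of 0.0282 and a range over the alternative fits of 0.000368 to 0.352. Its annotation names zinc ion binding and also lists ubiquitin-mediated proteolysis and protein processing in the endoplasmic reticulum, and nothing in it beyond the pathway term names ribosome assembly.

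The 4 rows of this kind that stood apart as higher in Dmtr23B were PDE_05818, PDE_00658, PDE_09406 and PDE_07632. PDE_05818 had the most tags, with 707 tags in Dmtr23B, 130 in Rmtr23B and 315 in M12. These are 211 TPM in Dmtr23B, against 38.7 TPM in Rmtr23B and 93.8 TPM in M12, so the 3 strains were spread out and the complemented strain lay more than 2-fold below the parent. The ratio of Dmtr23B to M12 was 2.25-fold (95% interval 1.97 to 2.58), with an edgeR adjusted p of 0.295, and the gene did not stand apart under the median of ratios or TMM. PDE_00658, also listed under RNA degradation, had 50.4 TPM in Dmtr23B, 13.7 TPM in Rmtr23B and 14.3 TPM in M12, and here Rmtr23B and M12 were nearly equal. Its ratio to M12 was 3.53-fold (95% interval 2.55 to 4.97), and edgeR's adjusted p was 0.124. PDE_09406 had the largest log2 difference of the members that were higher, 2.27, with 31.9 TPM in Dmtr23B, against 4.76 TPM in Rmtr23B and 7.14 TPM in M12. The ratio to M12 was 4.47-fold (95% interval 2.85 to 7.28), and the adjusted p in edgeR was 0.0615, with a range of 0.0104 to 0.352 over the alternative fits. PDE_07632, whose function term is D-amino-acid oxidase activity, had 25.1 TPM in Dmtr23B, 8.63 TPM in Rmtr23B and 11.0 TPM in M12, with an edgeR adjusted p of 0.338, and did not stand apart under those 2 scalings. PDE_00658, PDE_09406 and PDE_00869 stood apart under all 4 scalings.

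**Figure D5:**
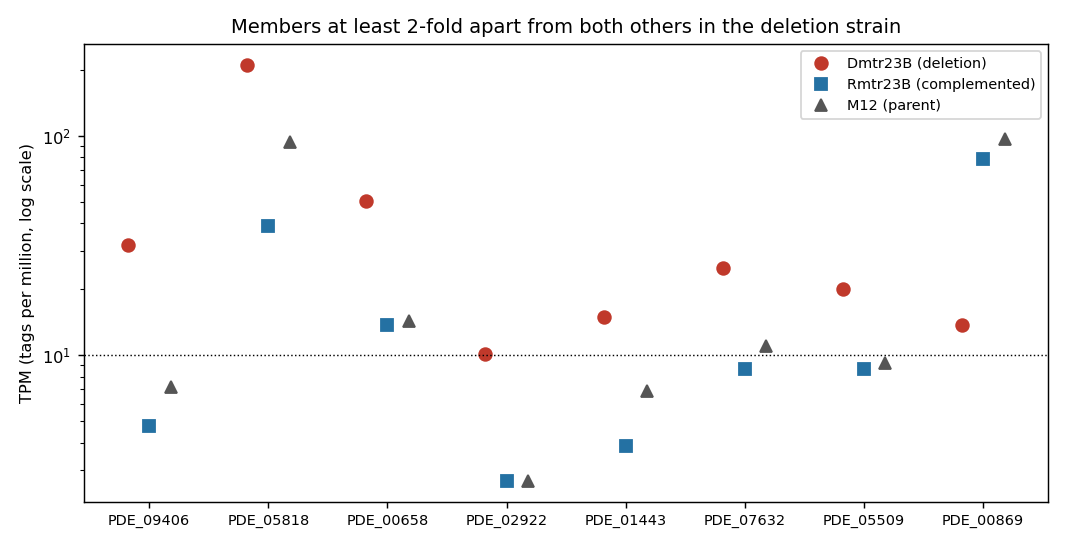
TPM on a log scale (vertical axis) of the 8 members that stood apart in Dmtr23B, with a circle for Dmtr23B, a square for Rmtr23B and a triangle for M12, and a dotted line at the minimum of 10 TPM. In 7 genes the circle is the highest mark, and in PDE_00869 it is the lowest, at 13.7 TPM, below 78.6 TPM in Rmtr23B and 96.7 TPM in M12.

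Complementation was also read directly, as Rmtr23B against M12. Of 87 members that reached 10 TPM in either library, 2 were at least 2-fold higher in Rmtr23B (4 under each other scaling), beside 4.52% of all genes, and 6 were at least 2-fold lower, beside 10.8%. The higher ones were Midasin, given above, and PDE_09975, a match to striatin, with 22.4 TPM in Dmtr23B, 25.0 TPM in Rmtr23B and 11.6 TPM in M12. The 6 lower ones were those that stood apart in Rmtr23B, the 4 synthetases, PDE_05818 and PDE_05863. PDE_05863 had 19.1 TPM in Dmtr23B, 4.76 TPM in Rmtr23B and 12.8 TPM in M12. Set directly against M12, Dmtr23B was 2-fold higher in 12 of 102 members, beside 14.6% of all genes, and 2-fold lower in 1, beside 10.2%. Set against Rmtr23B, it was 2-fold higher in 25 of 104, beside 25.8%, and 2-fold lower in 2, beside 11.1%. The shares of higher members were near or below those of all genes. These comparisons share the Dmtr23B or the Rmtr23B library, so their counts are not independent. The parent stood apart in 0 of the 104 members in either direction, beside 2.35% of all genes above and 0.573% below, by the size rule and without a test.

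A few members had no tags in a library. PDE_02082 and PDE_02908 had 0 tags in all 3 libraries, where 3 tags would be 0.895 TPM in Dmtr23B and 0.893 TPM in the other strains. A further 7 members, PDE_01463, PDE_06312, PDE_06996, PDE_08543, PDE_09013, PDE_09328 and PDE_09571, had 0 tags in at least 1 library, and all of them stayed under 10 TPM. Just under the minimum lay PDE_08047, whose highest value was 9.55 TPM, and just over it PDE_02922 and PDE_05014, both at 10.2 TPM. Of the 146 members, 23 had a member as a neighbour by locus number, in 12 pairs. The threonine enzyme PDE_08271 and Gar1 PDE_08272 are such a pair, with log2 differences of 0.92 and 0.46.

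The other genes of the same process were read from lists of the deposited pathways or, for translation factors and further rRNA processing genes, from product descriptions. The RNA polymerase pathway, whose enzymes transcribe rRNA, tRNA and mRNA, held 33 identifiers, of which 22 reached 10 TPM. Not all 22 are subunits by description, as PDE_08547 matched a transcription activator and PDE_07287 a histone-like transcription factor. Of the 22, 6 were at least 2-fold higher in Dmtr23B than in both other strains and 0 lower. By any amount 19 were above both, and the median log2 difference was 0.70. Under the median of ratios 4 were at least 2-fold higher, 16 were above both and the median was 0.36. For this list and those below, the shares of all genes were 10.8% higher, 7.82% lower and 58.9% above both. Under the median of ratios they were 5.76% higher and 40.8% above both. In edgeR 1 rose and 0 fell, with 4 higher and 0 lower at an unadjusted p under 0.05, and DESeq2 gave the same counts of 1 and 0. The gene that rose was the subunit RPC10 of RNA polymerase III, PDE_02595, with 384 TPM in Dmtr23B, 41.1 TPM in Rmtr23B and 39.0 TPM in M12 and an adjusted p of 0.0229. PDE_05819 of this list, next to the member PDE_05818 by locus number, had 50.1 TPM in Dmtr23B, 13.7 TPM in Rmtr23B and 18.2 TPM in M12. The ribosome pathway, which holds the ribosomal proteins, had 102 of 120 genes at 10 TPM, of which 3 were higher, 1 lower and 66 above both, with a median of 0.37, or 0.01 under the median of ratios, and 1 gene that rose in edgeR. Translation factors had 17 of 22 at 10 TPM, with 0 higher, 0 lower, 10 above both and a median of 0.26, which became -0.09 under the median of ratios, and edgeR called 0 of them, with 0 higher and 1 lower at an unadjusted p under 0.05 and 0 calls by DESeq2. Of the genes left out for a methyltransferase term, PDE_00286 had 270.3 TPM in Dmtr23B, 96.7 TPM in Rmtr23B and 138 TPM in M12, and PDE_01562 stayed under 10 TPM in all 3. RNA degradation genes that are no members had 58 of 88 at 10 TPM, with 5 higher, 2 lower and a median of 0.48, or 1 higher and a median of 0.14 under the median of ratios, and 1 fell in edgeR. Genes outside both member pathways whose descriptions name rRNA processing, ribosome biogenesis or assembly, or the nucleolus had 14 of 21 at 10 TPM. Of these, 1 was higher, 0 lower and 12 above both, with a median of 0.70. Under the median of ratios 9 were above both, with a median of 0.38. In edgeR 0 were called.

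The labelled tissue is mycelium, and asexual spores are the other cells that it could hold. Of 7 markers of conidia, 6 reached 10 TPM, 5 were at least 2-fold lower in Dmtr23B and 4 fell in edgeR. Their summed level was 1465 TPM in Dmtr23B, 1980.2 TPM in Rmtr23B and 2781 TPM in M12, and the largest term in each library was the RodA-like hydrophobin PDE_00021, with 1388 TPM in Dmtr23B, 812 TPM in Rmtr23B and 1587 TPM in M12. BrlA, PDE_00087, the regulator that starts conidiation, had 5.37 TPM in Dmtr23B, 89.3 TPM in Rmtr23B and 90.5 TPM in M12. The marker under 10 TPM, WetA, PDE_08333, lay the other way on few tags, 8 in Dmtr23B, 5 in Rmtr23B and 3 in M12. These are 2.39 TPM in Dmtr23B, 1.49 TPM in Rmtr23B and 0.89 TPM in M12. None of the 7 markers was at 0 in any library. Their part in the members' differences was not tested. In bulk samples such as these, fewer cells of a type and less RNA per cell cannot be told apart. The deleted gene itself is named in no product description of the table, so its own count was not read here.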

How the data were processed

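Tag libraries were made from polyadenylated RNA by NlaIII and MmeI digestion and sequenced as 35-bp reads, per the labels' protocols. The authors deposited 1 table of tag counts, not normalised, with the library totals in its file headers, and TPM values, which were recomputed from count and total to within 0.005 TPM and so carry no division by length. Not given in the sources used here are the mapper, genome build, annotation version, strand use and treatment of tags shared by similar genes, so paralogs and overlapping genes are uncertain. No molecular identifiers are mentioned. The table holds 9184 rows, of which 282 carry no identifier and were left out of results by gene.

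Each strain and medium had 1 library, 6 in all, and the 3 glucose libraries were used. Roles were assigned from deposited product descriptions, function terms and process terms. Members were compared by the 2-fold rule on TPM + 1 with a minimum of 10 TPM, and by edgeR 4.0.16 (filterByExpr, TMM, quasi-likelihood test, two-sided, Benjamini-Hochberg over all genes, threshold 0.05) in R 4.3.3, which was tested on simulated data. Alternatives were DESeq2 1.42.0, other size factors, no filter, a pseudocount of 5, a minimum of 20 TPM, none, and a fold of 1.5. Leaving PDE_09832 out of the totals, keeping members with a role only, and counting members above both others by any amount were added after seeing the data. Ratio and share intervals are exact (Clopper-Pearson) at 95%.

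Genes were named by rule: every member apart in Dmtr23B or past edgeR's threshold, the 2 members with most tags in each role, the 5 with the largest log2 difference of Dmtr23B and the 5 with the largest of Rmtr23B from M12, and every member with 0 tags in a library, 41 in all. Members and lists were chosen with earlier results of these data known. A RefSeq table of strain HP7-1 held none of the identifiers and was not used, so no position or sequence is given. Tables were computed with Python 3.11.15, pandas 2.3.3 and scipy 1.17.1.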

Additional observations from a re-analysis of the deposited data

How the results depend on the processing

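Members apart as higher in Dmtr23B numbered 7, and 2 under median-of-ratios or TMM scaling, 3 with a pseudocount of 5, 4 with a minimum of 20 TPM, 26 at a fold of 1.5 and 3 among members with a role by annotation. Those apart as lower numbered 1, and 2 under median-of-ratios or TMM scaling, 3 at a fold of 1.5 and 0 among members with a role. In Rmtr23B 0 were apart as higher, with 2 under median-of-ratios or TMM scaling and 2 at a fold of 1.5, and 6 as lower, with 16 at a fold of 1.5. In M12 0 were apart, with 1 in each direction without a minimum and 5 lower at a fold of 1.5. Against M12, Rmtr23B was higher in 2 members, with 4 under median-of-ratios scaling, TMM scaling, no minimum or totals less PDE_09832, 1 with a minimum of 20 TPM, 0 with a pseudocount of 5 and 7 at a fold of 1.5. It was lower in 6, with 17 at a fold of 1.5. Counts over all genes at a fold of 1.5, with a pseudocount of 5 or with another minimum are not given here. The member counts under those settings therefore cannot be set against the whole table. The members' median log2 difference of 0.47 was 0.13 under median-of-ratios scaling, 0.15 under TMM, 0.40 with a pseudocount of 5, 0.29 with totals less PDE_09832 and 0.52 among members with a role. Members above both others numbered 80, and 47 or 48 under those scalings. Leaving out the Rmtr23B or the M12 library gave 12 to 25 members higher in Dmtr23B, 1 to 2 lower and a median of 0.45 to 0.50, by construction against 1 strain alone. In edgeR the count of members that rose was 0, or 1 without the filter, and that of members that fell was 1, or 0 on library totals. Apart from the scaling and library changes themselves, the cause was not tested. No paired analysis was possible because each strain has 1 library. Without either Rmtr23B or M12 the edgeR fit has no residual degrees of freedom. Depth limits genes near 10 TPM, about 33.5 tags.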
